A study of Danio rerio with 2 samples.

Results

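The genes slc2a1a, slc2a1b, slc2a3a, slc2a11b, slc2a15a and slc2a15b belong to the slc2a (GLUT) family of facilitated sugar transporters. These 6 of the 16 slc2a genes among the 22077 genes of the filtered table were picked by name, and their levels were compared across cells gated by marker genes. GLUT proteins let glucose and related sugars or polyols pass the plasma membrane down their gradient, and a hexokinase then traps glucose inside the cell as glucose 6-phosphate. GLUT1, the mammalian counterpart of slc2a1a and slc2a1b, is the common basal transporter, and GLUT3, the counterpart of slc2a3a, is the main transporter of mammalian neurons. The genes slc2a11b and slc2a15b are known from medaka, where they are needed for pigmentation in xanthophores and leucophores. Zebrafish carry 3 pigment cell classes that arise from the neural crest: yellow xanthophores, which make pteridines, black melanocytes, which make melanin, and reflective iridophores, which build purine crystals.

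All cells came from trunks of Tg(crestin:mCherry;mitfa:GFP) zebrafish embryos at 72 hours post fertilisation (hpf), in which crestin drives mCherry in neural crest derivatives and mitfa drives GFP in pigment precursors. Both groups had their embryonic melanocytes ablated with MoTP from 24 hpf, and the drug was washed out at 64 hpf, so that cells were taken 8 hours into regeneration and no group without MoTP was compared. One group, DMSO, received the vehicle, and the other, CVT-10216, received an inhibitor of the aldehyde dehydrogenase Aldh2 at 10 µM from 24 hpf. Trunk cells of about 500 pooled embryos per group were sorted for GFP, mCherry or both, and each group gave 1 single-cell library with a 3′ kit, so differences between groups have no replicate check and no test was possible.

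The libraries were told apart by the suffix of the cell barcode. They held 4488 cells (DMSO) and 6795 cells (CVT-10216), with medians of 8581 and 9487 UMIs (unique molecular identifiers, each standing for 1 captured transcript) per cell. They shared 4 barcode sequences. A cell passed a gate with at least 3 UMIs of the gate gene and at least 0.1 of that gene's 99th percentile of per-cell level, and 2829 cells passed no gate. The gates were gch2 (pteridine synthesis, xanthophores), dct (melanin synthesis, melanoblasts), pnp4a (purine nucleoside phosphorylase, iridophores) split by the iridophore gene fhl2b, phox2bb (enteric and autonomic neurons and their progenitors), slc6a5 (glycine transporter of inhibitory neurons), mpeg1.1 (macrophages), epcam (epithelia) and actc1b (muscle actin). Of the other markers of each type, those highest in their own gate numbered 6 of 7 for xanthophores (csf1ra was higher in mpeg1.1 cells), 9 of 9 for melanoblasts, 6 of 6 for iridophores, 5 of 6 for enteric cells (all but elavl4), 6 of 6 for glycinergic neurons, 6 of 7 for macrophages (all but cd74a), 7 of 7 for epithelia and 8 of 8 for muscle. The actc1b gate was nevertheless mixed: its 36 and 229 cells held gch2 at 1602 and 1926 CPM, against 26205 and 25029 CPM in the gch2 cells. All levels are CPM, the UMIs of a gene summed over the cells of a type and scaled so that all UMIs of those cells add up to 1000000, and values are given for DMSO first and CVT-10216 second. Calls of a ratio needed at least 20 UMIs and an interval that excluded 0, and intervals are exact at 95% and cover counting error only. The kit counts transcript ends, so levels were not divided by gene length.

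The 6 genes differed widely in abundance. Transcripts of slc2a11b were the most numerous, with 7718 UMIs in the DMSO library and 20613 in the CVT-10216 library. Those of slc2a15a (2435 and 6144), slc2a15b (1452 and 3263) and slc2a3a (962 and 1074) followed. Few transcripts of the GLUT1 genes were counted in these cells, with 30 and 47 UMIs of slc2a1a and 127 and 196 of slc2a1b. Of all cells 0.646% and 0.648% had a UMI of slc2a1a, and 2.63% and 2.68% had one of slc2a1b. No type reached 20 CPM of either gene in either library.

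**Figure D1:**
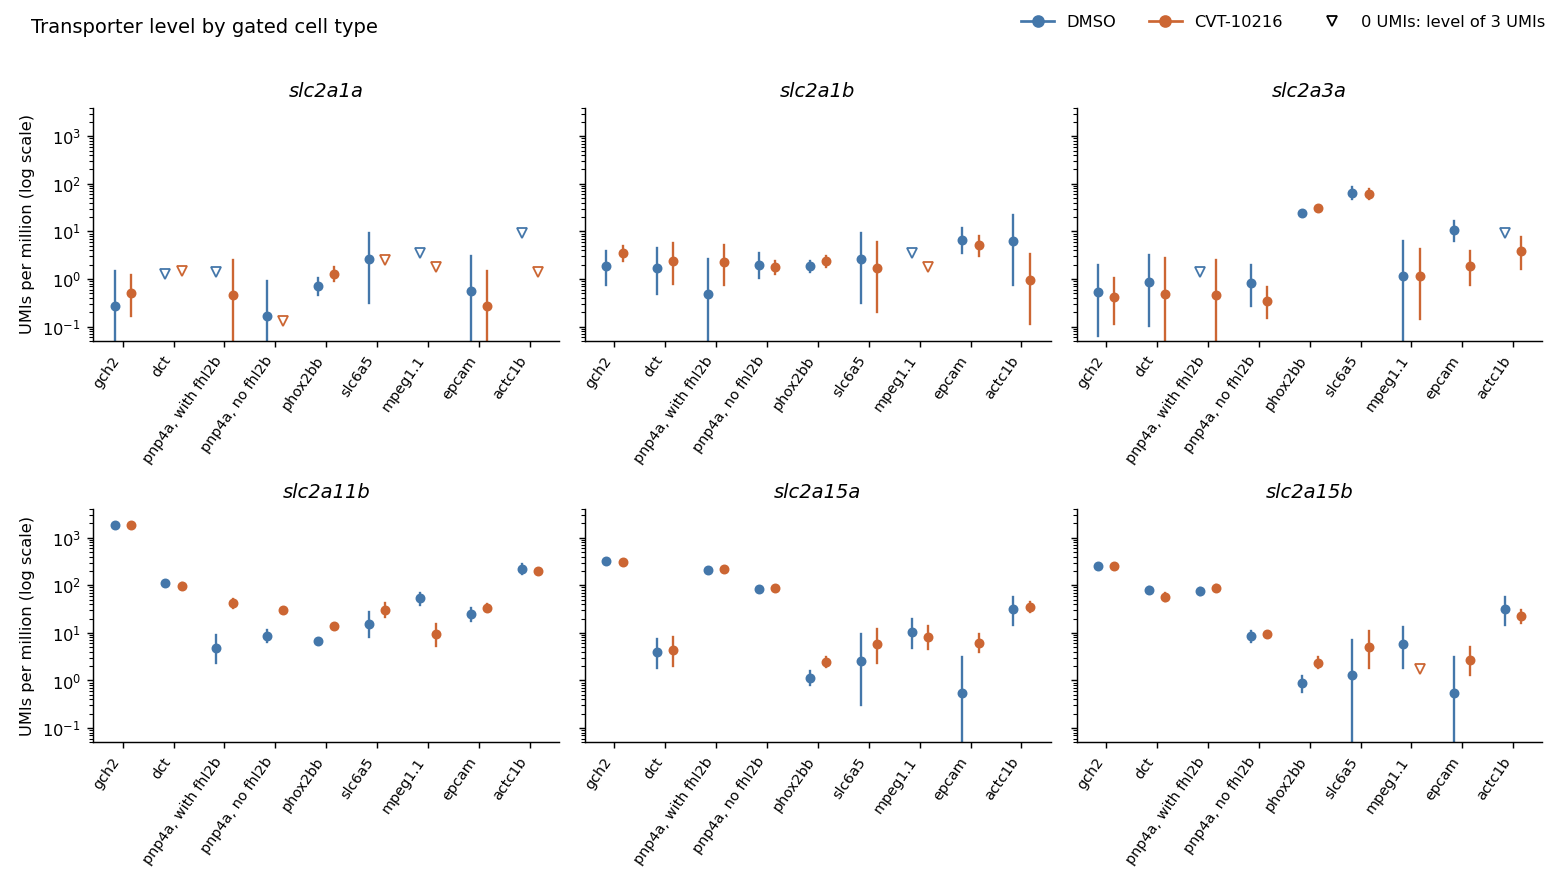
Level of each transporter in CPM (log axis) in the 9 gated types, with DMSO in blue and CVT-10216 in orange. Points are summed levels of 1 library and lines are exact 95% Poisson intervals. Open triangles mark the level that 3 UMIs would give where none was found. The 3 genes of the lower row were highest in gch2 cells, slc2a3a in slc6a5 and phox2bb cells, and slc2a1a and slc2a1b stayed under 7 CPM everywhere.

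The leading transporter differed between the pigment types. In gch2 cells slc2a11b led with 1807 CPM in 633 cells of the DMSO library and 1869 CPM in 1467 of the CVT-10216 library, which was 75.8% (74.9 to 76.7%) and 76.9% (76.3 to 77.4%) of the UMIs of all 6 genes. In dct cells the same gene led with 56.2% (51.5 to 60.8%) of 452 UMIs in DMSO and 59.8% (54.3 to 65.1%) of 331 UMIs in CVT-10216. In pnp4a cells slc2a15a took the lead, both with fhl2b (72.8% and 62.4%) and without it (80.7% and 68.6%). In phox2bb cells (68.7% and 58.8%) and slc6a5 cells (72.5% and 59.2%), by contrast, slc2a3a led. The remaining 3 types had slc2a11b in front, and in the mpeg1.1 cells of the CVT-10216 library its interval overlapped that of slc2a15a (9.46 against 8.27 CPM). In the mpeg1.1 cells of DMSO 31 of its 46 UMIs came from 1 cell. In the mixed actc1b cells with at most 2 gch2 UMIs it held 3 and 21 UMIs, against 1 and 16 of slc2a15a. The epcam cells without lrp2a, a split given below, held 8 and 62 UMIs of slc2a11b. They held 11 and 19 of slc2a1b, so slc2a11b was not in front there in DMSO. In the 8 types other than mpeg1.1 the leader's interval lay clear of that of the second gene in both libraries. This held for 5 types once each cell was thinned to 4000 UMIs, and for 6 with gates at 10 UMIs or a gate floor of 0.25.

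Among all 16 genes of the family the leader stayed the same in 7 of the 9 types. In mpeg1.1 cells it was slc2a6, a transporter of macrophages in mammals, with 143 CPM in DMSO and 128 CPM in CVT-10216. In epcam cells slc2a12 was highest with 33.5 and 39.2 CPM, although its interval overlapped that of slc2a11b (24.6 and 34.0 CPM) in each library. Of the 10 family genes outside the 6, slc2a6 and slc2a13b in mpeg1.1 cells and slc2a12 in epcam cells were the ones to reach 20 CPM in a gated type. Together the 6 genes gave 2385 and 2432 CPM in gch2 cells.

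**Figure D2:**
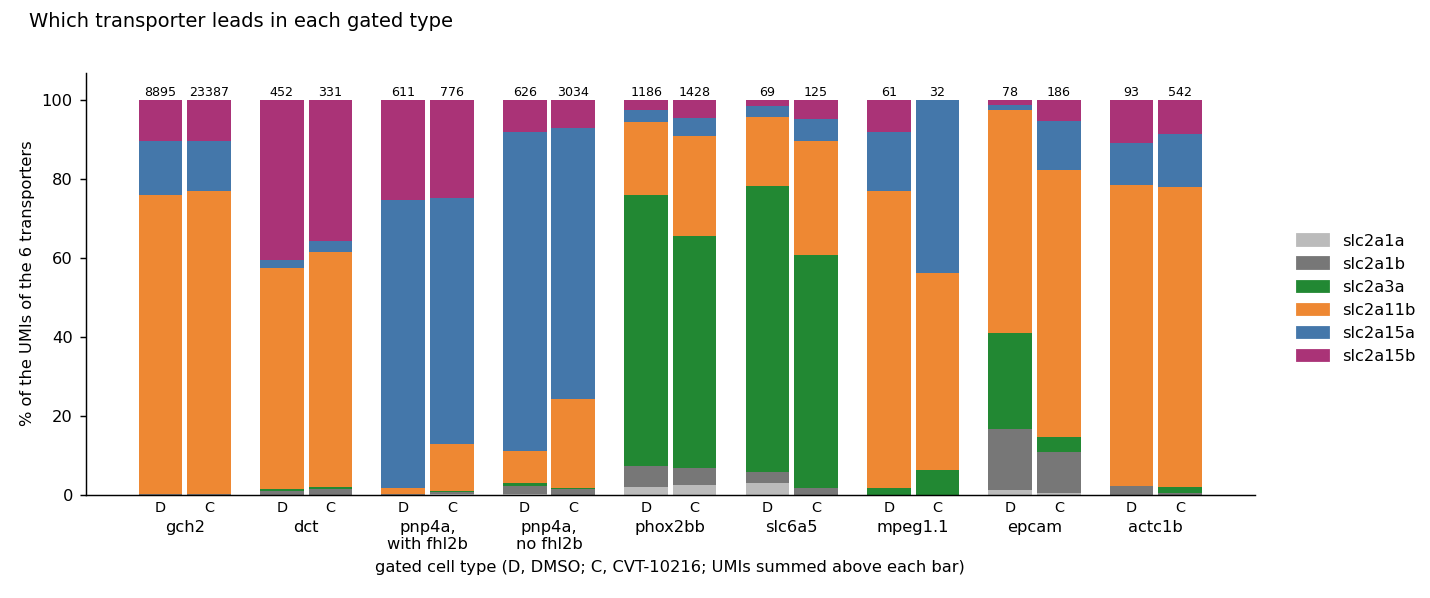
Share of each transporter in the UMIs of the 6 genes, in percent, for each gated type and library (D, DMSO, and C, CVT-10216). The number above a bar is the count of UMIs behind it. The orange slc2a11b fills most of the gch2 bars, the blue slc2a15a most of the pnp4a bars and the green slc2a3a most of the phox2bb and slc6a5 bars.

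The level of slc2a11b in gch2 cells stood far above that in any other type. The next were the mixed actc1b cells with 220.4 and 195 CPM, then dct cells with 110.4 and 96.1 CPM, and these steps exceeded the counting intervals in both libraries. In DMSO 66 of the 71 UMIs in actc1b cells came from 5 cells. Without cells passing several gates the actc1b cells fell below the dct cells, with 25.9 and 31.35 CPM against 113 and 88.7 CPM. Below the actc1b and dct cells the order was not stable between the libraries: mpeg1.1 cells followed dct cells in DMSO (52.7 CPM) and were last in CVT-10216 (9.46 CPM). In DMSO the pnp4a cells with fhl2b were lowest at 4.80 CPM. The gch2 cells held 87.3% and 87.2% of all slc2a11b UMIs in the table.

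Nearly every gch2 cell carried slc2a11b. After each cell was thinned to 4000 UMIs, so that deep and shallow cells could be compared, a UMI was found in 95.7% (93.3 to 97.4%) of 421 cells and 96.2% (94.9 to 97.3%) of 1039 cells, and the unthinned shares were 96.7% and 95.8%. The median thinned cell held 6 UMIs in each library, and the most in a cell were 27 and 35. As a measure of background, macrophages (mpeg1.1) showed a UMI in 4.05% (0.844 to 11.4%) of 74 and 1.74% (0.211 to 6.14%) of 115 thinned cells, with median depths of 10992 and 13396.5 UMIs before thinning against 4947 and 5440 in gch2 cells. The mixed actc1b cells, also meant as background, showed one in 12.5% (2.66 to 32.4%) of 24 and 17.2% (11.6 to 24.0%) of 157 thinned cells. The gch2 share lay far above both backgrounds in both libraries.

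The gate itself set a limit on gch2, so the transporters were followed along the level of gch2 through gch2 cells and cells of no gate. Cells without a gch2 UMI held 13.0 CPM of slc2a11b in DMSO and 13.6 CPM in CVT-10216. Cells just outside the gate, at 0.05 to 0.1 of the 99th percentile, held 788 and 936 CPM. Cells just inside it, at 0.1 to 0.2, held 1331 and 1308 CPM, and those at 0.2 to 0.5 held 1917 and 1889 CPM. Beyond that the level was 1802 (1744 to 1863) CPM in DMSO and 1971 (1931 to 2011) CPM in CVT-10216. These intervals overlapped those of the class before, at 1846 to 1990 and 1846 to 1932 CPM. Both slc2a15 genes followed the same course, from 8.83 and 12.7 CPM of slc2a15a without gch2 to 321 and 325 CPM in the highest class.

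**Figure D3:**
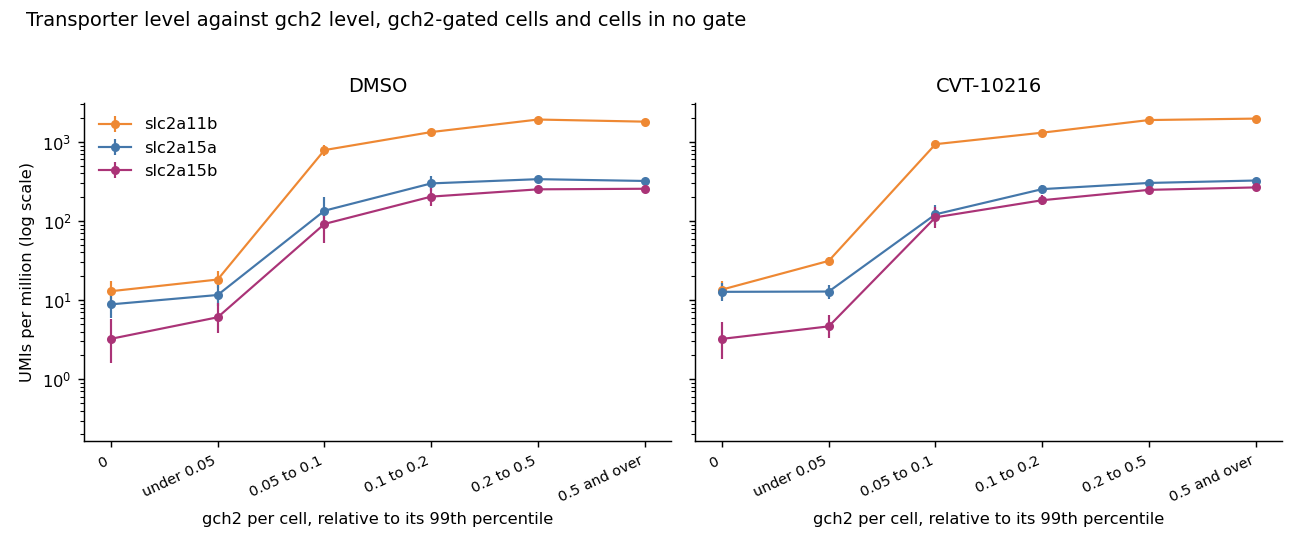
Level of slc2a11b, slc2a15a and slc2a15b in CPM (log axis) in cells ordered by their gch2 level relative to its 99th percentile, for gch2 cells and cells of no gate, with DMSO left and CVT-10216 right. Points are summed levels and lines exact 95% Poisson intervals. The gate begins at 0.1. All 3 genes climb steeply below the gate and level off above 0.2, with slc2a11b from 13.0 to 1802 in DMSO.

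In dct cells slc2a11b reached 6.11% and 5.14% of its gch2 level, and slc2a15b reached 31.9% and 22.9%. For comparison, the 7 xanthophore markers in dct cells stood at a median of 1.22% (0.331 to 5.89%) of their gch2 level in DMSO and 1.80% (1.14 to 5.25%) in CVT-10216, and slc2a15a stood at 1.2% and 1.42%. Thus slc2a15a lay within the range of the xanthophore markers, and slc2a15b lay above every one of them in both libraries. The level of slc2a11b was just above the range in DMSO and within it in CVT-10216. Most dct cells also held gch2, with at least 3 UMIs in 222 of 276 and 181 of 212 cells. In the dct cells with 3 or more gch2 UMIs slc2a15b stood at 82.1 (70.3 to 95.2) and 58.8 (48.5 to 70.7) CPM. In the few without gch2 or with 1 or 2 UMIs the counts were too small for a comparison, at 9 UMIs in DMSO and 5 in CVT-10216.

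After thinning, slc2a11b was found in 29.0% of dct cells in DMSO and 32.0% in CVT-10216, and slc2a15b in 24.4% (18.5 to 31.0%) and 21.3% (15.1 to 28.8%). Macrophages gave 1.35% and 0 of 115 cells for slc2a15b. The mixed actc1b cells gave 12.5% (2.66 to 32.4%) and 4.46% (1.81 to 8.97%) for slc2a15b. For slc2a11b and slc2a15b alike, the actc1b interval overlapped that of dct cells in DMSO and lay below it in CVT-10216. Thinned dct cells with both genes numbered 13 of 193 and 9 of 150, against 13.6 and 10.2 if the genes were spread independently. The pair therefore showed no more overlap in dct cells than independence gives. In gch2 cells nearly all cells held slc2a11b, and slc2a15a and slc2a15b met in 172 of 421 and 434 of 1039 cells, against 158 and 397 under independence. Of the gch2 cells with slc2a15b, 69.9% and 71.5% also held slc2a15a, against 56.0% and 56.7% of those without it.

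The gene slc2a15a was highest in gch2 cells, at 325 (307 to 344) CPM in DMSO and 308 (297 to 320) CPM in CVT-10216. Next came pnp4a cells with fhl2b, at 213 (194 to 234) and 219 (200.3 to 239.9) CPM, and then pnp4a cells without fhl2b, at 83.7 (76.6 to 91.3) and 89.5 (85.7 to 93.5) CPM. These 3 steps did not overlap in either library. Outside the actc1b cells, no other type exceeded 10.4 CPM, and dct cells held 3.91 and 4.37 CPM. The thinned shares had the same order, with 64.1% and 65.4% of gch2 cells, 55.1% and 48.8% of pnp4a cells with fhl2b, 30.6% and 28.3% of those without, and 1.04% and 1.33% of dct cells. Macrophages gave 2.70% (0.329 to 9.42%) and 0 of 115 cells, where 3 cells would be 2.61%, so the dct share did not exceed the macrophage background at this depth. The mixed actc1b cells gave 12.5% (2.66 to 32.4%) of 24 and 8.92% (4.96 to 14.5%) of 157 cells. In DMSO that interval took in the share of pnp4a cells without fhl2b.

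The sister gene slc2a15b was likewise highest in gch2 cells, at 249.6 and 249.9 CPM. It then took dct cells (79.5 and 57.3 CPM) and pnp4a cells with fhl2b (74.3 and 87.1 CPM). The intervals of these types overlapped in DMSO (68.4 to 91.9 against 63.1 to 87.0) and were apart in CVT-10216 (47.4 to 68.6 against 75.2 to 100.3), where the fhl2b cells were higher. In pnp4a cells without fhl2b only 8.45 and 9.29 CPM remained. After thinning slc2a15b was found in 58.4% of gch2 cells of each library, in 26.0% and 28.1% of pnp4a cells with fhl2b, and in 2.44% and 3.46% of those without.

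The balance between the slc2a15 genes thus differed between the pigment types. Of the UMIs of both, slc2a15a made up 56.6% (54.5 to 58.7%) and 55.2% (53.9 to 56.6%) in gch2 cells. In dct cells it made up 4.69% and 7.09%. In pnp4a cells with fhl2b it made up 74.2% and 71.6%, and in those without fhl2b 90.8% and 90.6%. The intervals of these 4 types did not overlap within either library.

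**Figure D4:**
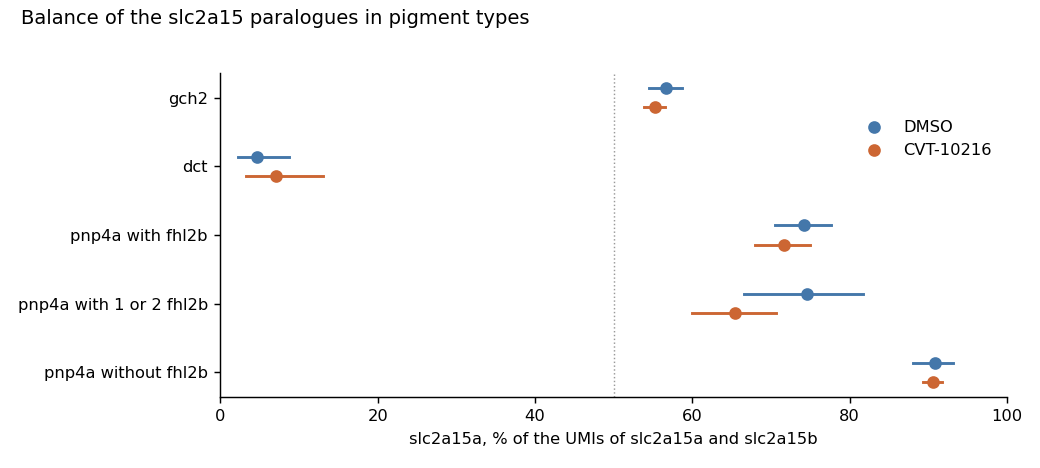
Share of slc2a15a in the UMIs of slc2a15a and slc2a15b, in percent, in the pigment types of each library. Points are the shares and lines exact 95% Clopper-Pearson intervals, and the dotted line marks equal counts. Shares run from 4.69% and 7.09% in dct cells to 90.8% and 90.6% in pnp4a cells without fhl2b, and those of gch2 cells lie near equal counts.

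Within the pnp4a cells both slc2a15 genes were higher where fhl2b was present. The log2 ratio of cells with over cells without fhl2b was 1.35 (1.16 to 1.54) in DMSO and 1.29 (1.15 to 1.44) in CVT-10216 for slc2a15a. It was 3.14 (2.67 to 3.62) and 3.23 (2.94 to 3.52) for slc2a15b. So slc2a15b, the lower of the pair, differed more steeply with fhl2b, and its intervals lay apart from those of slc2a15a. Of the 6 genes these 2 were past 2-fold in both libraries, where 17.6% of 9849 genes tested were. With TMM scaling slc2a15a came to 0.95 in CVT-10216 and lost its call. The ratio of slc2a11b was −0.85 (−1.99 to 0.15) and 0.51 (0.19 to 0.83), without a call. The cells with 1 or 2 UMIs of fhl2b, set aside from this comparison, stood near the cells with fhl2b, at 210.1 and 199 CPM of slc2a15a and 71.4 and 105 CPM of slc2a15b. Cells with fhl2b were somewhat deeper, with medians of 15460 and 17091 UMIs against 13286.5 and 15085. The summed level of the 6 iridophore markers was also higher in them, at 5187 and 4493 against 2775 and 2704 CPM. The markers differed unequally. Without fhl2b they stood at 3.67 to 109% (median 74.3%) of their level with it in DMSO. In CVT-10216 they stood at 4.45 to 99.4% (median 73.8%). The part that depth or these markers play in the ratio was not tested.

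The neuronal transporter slc2a3a was highest in slc6a5 cells, at 64.5 (47.8 to 85.0) CPM in 117 cells and 62.3 (48.9 to 78.2) CPM in 189 cells. It was lower in phox2bb cells, at 24.5 (22.9 to 26.3) CPM in 1403 cells and 31.7 (29.6 to 33.9) CPM in 1010 cells. The intervals of these summed levels lay apart in both libraries, although in DMSO 33 of the 50 UMIs in slc6a5 cells came from 5 cells. In the 4 pigment types slc2a3a never exceeded 0.87 CPM, with 0 to 8 UMIs per type and library. The thinned share was 11.8% (4.44 to 23.9%) and 15.8% (9.33 to 24.4%) in slc6a5 cells. In phox2bb cells it was 7.78% (6.40 to 9.35%) and 10.5% (8.67 to 12.6%), so the shares of these types overlapped in both libraries. In the pigment types it was at most 0.667%. In macrophages a UMI was found in 0 of 74 and 0 of 115 cells, where 3 cells would be 4.05% and 2.61%.

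The phox2bb gate takes in progenitors as well as neurons, and slc2a3a lay almost wholly in the neurons. This split was chosen after its values were seen. Cells with at least 3 UMIs of elavl4, a neuronal RNA-binding protein, held 767 of the 815 slc2a3a UMIs in DMSO (94.1%) and 817 of 839 in CVT-10216 (97.4%). Their level was 48.5 (45.1 to 52.1) CPM in 562 cells and 45.7 (42.7 to 49.0) CPM in 601 cells. Without elavl4 it was 1.6 (0.947 to 2.53) CPM in 591 cells and 1.89 (0.866 to 3.59) CPM in 261 cells. Depth differed between these classes, with medians of 20690.5 and 22199 UMIs in the neurons against 13332 and 13102. For slc2a1b the levels were 2.49 (1.65 to 3.59) and 3.58 (2.08 to 5.73) CPM without elavl4. With at least 3 UMIs of elavl4 they were 1.52 (0.973 to 2.26) and 2.07 (1.46 to 2.86) CPM, so the intervals overlapped in both libraries. The phox2bb cells without elavl4 held 28 and 17 UMIs of slc2a1b, against 18 and 9 of slc2a3a. In them slc2a3a was therefore not in front, although the intervals of these genes overlapped. The slc6a5 cells with at least 3 UMIs of elavl4 held slc2a3a at 65.7 (48.8 to 86.6) and 62.9 (49.3 to 79.1) CPM. Those intervals overlapped that of the phox2bb neurons in DMSO and lay just apart in CVT-10216.

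Each type was also set against all other gated cells of its library. The mix of those cells differed between the libraries. Of all cells, phox2bb cells made up 31.3% and 14.9%, gch2 cells 14.1% and 21.6%, and pnp4a cells without fhl2b 10.6% and 22.6%. A ratio can therefore differ between the libraries where the level in the type does not, and the part of the mix was not tested. Of the 54 pairs of a gene and a type, 4 were at least 4-fold higher in both libraries. In gch2 cells these were slc2a11b (log2 ratios 6.92 and 5.92), slc2a15b (4.76 and 4.59) and slc2a15a (3.92 and 2.81), which ranked 23, 75 and 131 of 16367 genes in DMSO and 24, 70 and 278 of 17582 in CVT-10216. In phox2bb cells it was slc2a3a (2.48 and 3.79). The level of slc2a3a was nevertheless higher in slc6a5 cells (64.5 and 62.3 CPM) than in phox2bb cells (24.5 and 31.7 CPM). The cells set against slc6a5 cells include the phox2bb cells. The background was 2.77% of 16258 genes in gch2 cells and 4.07% in phox2bb cells, against 3 of the 6 genes in gch2 cells and 1 of the 6 in phox2bb cells. None of the 6 was called in dct cells (background 2.16%), pnp4a cells with fhl2b (1.35%) or without (2.42%), slc6a5 cells (10.6%), mpeg1.1 cells (5.21%), epcam cells (8.42%) or actc1b cells (2.57%). In pnp4a cells with fhl2b slc2a15a was past 4-fold in DMSO alone (log2 ratio 2.55) and stood at 1.55 in CVT-10216. Its level in those cells was 213 and 219 CPM. Called in CVT-10216 alone were slc2a3a in slc6a5 cells (1.94 and 2.35) and slc2a1a in phox2bb cells (1.37 and 3.07).

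The genes whose levels over the 9 types followed each transporter most closely were found by Pearson's r of log2(CPM + 5) in DMSO, over 10364 genes, with the r in CVT-10216 given beside it. The 9 points share libraries and unequal depths, so r is a description. For slc2a15a, 4 of the 5 nearest genes belong to de novo purine synthesis or the folate cycle that feeds it: mthfd1b (r 0.97 and 0.95), paics (0.96 and 0.97), atic (0.96 and 0.98) and ppat (0.95 and 0.93). The nearest was mlphb, a melanophilin gene (0.98 and 0.99). For slc2a15b the nearest was pik3c3, a lipid kinase of endosomes (0.97 and 0.96), followed by rdh8a (0.97 and 0.91). For slc2a11b the nearest were pon1, a paraoxonase (0.96 and 0.92), apol1 (0.96 and 0.89), dhrs13a.1 (0.95 and 0.87) and the organic anion transporter gene slc22a7a (0.95 and 0.98). For slc2a3a they were bean1 (0.99 and 0.95), the noradrenaline transporter slc6a2 (0.99 and 1.0) and the neurotrophin receptor ntrk3b (0.99 and 0.96). For slc2a1a and slc2a1b the 5 nearest genes of each in DMSO had r between −0.01 and 0.61 in CVT-10216.

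In the gch2, pnp4a and slc6a5 cells the levels of the leading transporter differed by less than 1.5-fold between the libraries. In gch2 cells the log2 ratio of CVT-10216 over DMSO was 0.05 (0.01 to 0.09) for slc2a11b, −0.08 (−0.17 to 0.02) for slc2a15a and 0.00 (−0.11 to 0.11) for slc2a15b, where 8.47% of 11565 genes were past 1.5-fold and the median gene stood at 0.10. In pnp4a cells slc2a15a gave 0.04 (−0.15 to 0.23) with fhl2b and 0.10 (−0.04 to 0.24) without. In slc6a5 cells slc2a3a gave −0.05 (−0.59 to 0.50), where 9.39% of genes were called. In dct cells slc2a11b gave −0.20 (−0.48 to 0.07) and slc2a15b −0.47 (−0.82 to −0.13), the lower level in CVT-10216 staying short of 1.5-fold, and 6.47% of genes were called. Among the 54 and 31 dct cells with at most 2 gch2 UMIs slc2a11b had 22 and 6 UMIs, a log2 ratio of −1.5 (−3.09 to −0.16). The actc1b cells had no transporter called (background 12.6%).

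Of 30 pairs of a gene and a type with at least 20 UMIs, 9 were past 1.5-fold with an interval that excluded 0, of which 7 were higher in CVT-10216 and 2 lower. Over all genes the same rule called between 5.64% (pnp4a cells without fhl2b) and 20.5% (phox2bb cells), depending on the type. Of the 9 pairs, those with slc2a11b are given first. In pnp4a cells with fhl2b it went from 10 UMIs in 127 cells (4.80 CPM) to 93 UMIs in 123 cells (42.2 CPM), a log2 ratio of 3.14 (2.19 to 4.24), where 7.25% of genes were called. In pnp4a cells without fhl2b it went from 52 UMIs (8.62 CPM) to 687 UMIs (29.5 CPM), a ratio of 1.78 (1.37 to 2.21), where 5.64% were called. In phox2bb cells it went from 219 UMIs (6.60 CPM) to 365 UMIs (13.8 CPM), a ratio of 1.06 (0.82 to 1.31), where 20.5% were called. Without the 5% of cells with most UMIs the phox2bb ratio was 0.58 and the call was lost. In mpeg1.1 cells the direction was the opposite, from 46 UMIs (52.7 CPM) to 16 UMIs (9.46 CPM), a ratio of −2.48 (−3.40 to −1.63), where 7.71% were called.

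The summed gch2 level differed between the libraries in the same direction as slc2a11b in these 4 types. In pnp4a cells with fhl2b it was 117 CPM in DMSO and 470 CPM in CVT-10216, in those without fhl2b 164 and 367 CPM, in phox2bb cells 93 and 149 CPM, and in mpeg1.1 cells 222 and 121 CPM. The gch2 level was also higher in CVT-10216 in types where slc2a11b was not called. In dct cells it was 2446 and 3040 CPM (slc2a11b log2 ratio −0.20), and in actc1b cells 1602 and 1926 CPM (−0.17). In slc6a5 cells it was 156 and 364 CPM (0.97), and in epcam cells 51.9 and 278 CPM (0.47). Of the slc2a11b UMIs, 68 of 93 lay in 5 pnp4a cells with fhl2b of the CVT-10216 library. In the DMSO library 31 of 46 lay in a single mpeg1.1 cell. In pnp4a cells without fhl2b the 5 top cells held 36 of 52 and 168 of 687 UMIs. In phox2bb cells they held 84 of 219 and 108 of 365. The 4 types with a call were also read in cells with at most 2 gch2 UMIs, a limit added after seeing the data. The log2 ratios of slc2a11b were 1.56 (−0.20 to 3.66) in pnp4a cells with fhl2b and 0.44 (−0.37 to 1.35) without. They were 0.12 (−0.42 to 0.65) in phox2bb cells and −0.09 (−2.46 to 2.59) in mpeg1.1 cells. Only 4 and 11 UMIs were left in the pnp4a cells with fhl2b and 3 and 5 in the mpeg1.1 cells, under the 20 that a call needs, and the other ratios were not called. The levels there were 2.08 and 6.12 CPM with fhl2b, 2.61 and 3.55 CPM without it, 2.45 and 2.67 CPM in phox2bb cells and 3.64 and 3.41 CPM in mpeg1.1 cells. The actc1b cells fell from 220.4 and 195 CPM to 11.1 and 14.1 CPM under the same limit. For slc2a15a in pnp4a cells the levels under that limit were 210.2 and 216 CPM with fhl2b and 83.8 and 86.4 CPM without. Since slc2a11b goes with gch2 from cell to cell, such a limit also removes slc2a11b, and the part of gch2-bearing cells in these differences was not tested. With all cells that passed several gates left out, the log2 ratios of slc2a11b were 2.62, 1.83 and 0.75 in the pnp4a cells with and without fhl2b and the phox2bb cells, all still called, and 0.56 in mpeg1.1 cells, where the direction turned. With gates at 10 UMIs the mpeg1.1 ratio turned likewise, to 0.23.

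**Figure D5:**
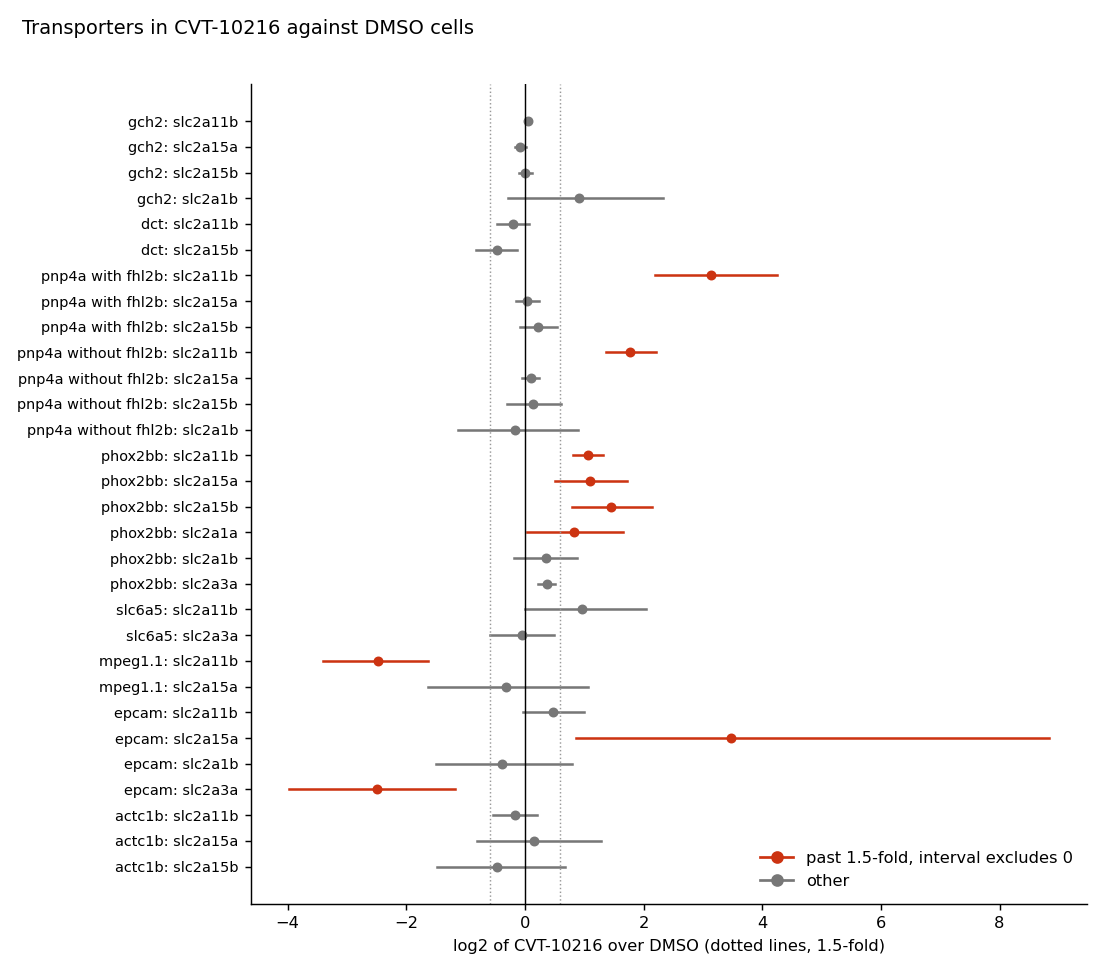
Log2 ratio of CVT-10216 over DMSO for the 30 pairs of a gated type and a transporter with at least 20 UMIs. Points are ratios of summed levels, lines exact 95% conditional intervals for counting error, dotted lines 1.5-fold, and red marks the 9 pairs past it whose interval excludes 0. The pairs of gch2 cells with slc2a11b, slc2a15a and slc2a15b lie at 0.05, −0.08 and 0.00.

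In phox2bb cells 3 further transporters were called higher in CVT-10216, all at low levels, in a type where 3049 of 15720 genes were called higher and 179 lower. These were slc2a15a (1.14 to 2.46 CPM, log2 ratio 1.1), slc2a15b (0.874 to 2.38 CPM, 1.45) and slc2a1a (0.723 to 1.28 CPM, 0.83 with an interval of 0.03 to 1.65). After thinning the ratio of slc2a1a turned to −1.30, but only 10 DMSO and 3 CVT-10216 cells then held a UMI, 1 each. That is under the 20 UMIs that a call needs. The call of slc2a1a was also lost with cells weighted equally (0.23) and with TMM scaling (0.67). It was lost too with a gate floor of 0.25 (0.76) and without the 5% of cells with most UMIs (0.55). In phox2bb cells with at least 3 UMIs of elavl4 the ratio of slc2a1a was 0.65 (−0.22 to 1.57). The call of slc2a15a was lost with cells weighted equally (0.58), without the 5% of cells with most UMIs (0.72) and after thinning (2.02). That of slc2a15b was lost after thinning (1.24). Thinned cells with a UMI, 1 each, numbered 2 and 6 for slc2a15a and 4 and 7 for slc2a15b, too few for a call. Among phox2bb cells with at most 2 gch2 UMIs the ratios were 1.36 (0.44 to 2.31), 1.35 (0.14 to 2.64) and 1.07 (0.19 to 1.98), on 17 against 29, 10 against 17 and 20 against 28 UMIs. The summed levels of the xanthophore markers (15.9 and 21.3 CPM) and of the iridophore markers (31.6 and 48.8 CPM) were also higher in the phox2bb cells of CVT-10216, and their part in these ratios was not tested.

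The leading gene of the phox2bb cells, slc2a3a, gave a log2 ratio of 0.37 (0.23 to 0.51), under the 1.5-fold limit, against a median gene at 0.16. The share of phox2bb cells with at least 3 UMIs of elavl4 was 40.1% in DMSO and 59.5% in CVT-10216. Within those neurons the ratio of slc2a3a was −0.09 (−0.23 to 0.06), and in cells without elavl4 it was 0.24 (−1.09 to 1.47). In cells with 1 or 2 UMIs of elavl4 it was −0.54 (−1.60 to 0.45). The part of the neuron share in the ratio over the whole gate was not tested.

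In epcam cells slc2a15a (1 UMI against 23, log2 ratio 3.48, 0.85 to 8.84) and slc2a3a (19 against 7, −2.49, −3.98 to −1.17) were called, where 16.9% of genes were. Of the 19 slc2a3a UMIs in DMSO, 16 came from 1 cell. The call of slc2a15a was lost without cells passing several gates (2.72). With at most 2 gch2 UMIs it stood at 1 against 7 UMIs and was no longer tested, while slc2a3a gave −2.75 (−4.53 to −1.28) with that cell still included.

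The epcam cells held a class of their own with high slc2a11b, which was seen only after the values were known. Cells with at least 3 UMIs of lrp2a, the endocytic receptor megalin of kidney tubule cells, numbered 12 of 118 in DMSO and 23 of 197 in CVT-10216. Their slc2a11b level was 120 (83.8 to 166) and 173 (133 to 223) CPM, against 5.49 (2.37 to 10.8) and 19.0 (14.5 to 24.3) CPM in epcam cells without lrp2a. It came from 7 of the 12 and 20 of the 23 cells. The same cells held 123 and 375 CPM of slc2a12 and 824 and 835 CPM of the sodium-coupled sugar transporter slc5a9, against 15.8 and 3.36 CPM and 4.12 and 0.306 CPM without lrp2a. They also held slc4a4a, a bicarbonate cotransporter, at 3303 and 3011 CPM, and the skin keratin gene krt4 at 3.32 and 17.0 CPM, against 15680 and 16140 CPM in the rest. Of the slc2a11b UMIs in all epcam cells, 36 of 44 in DMSO but 39 of 126 in CVT-10216 lay in cells with no gch2 UMI.

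Other genes of glucose entry and handling were read from a list of 28 symbols, of which 21 were in the table. The hexokinase gene hk1 was above 20 CPM in every type of both libraries, from 28.4 CPM in mpeg1.1 cells of CVT-10216 to 173 CPM in slc6a5 cells of DMSO. In the pigment types it lay between 49.6 and 84.1 CPM, so hk1 transcripts varied far less across them than those of slc2a11b and the slc2a15 genes. A second hexokinase gene, hk2, passed 20 CPM in mpeg1.1 cells (45.8 and 48.5 CPM) and in no other type. The gene txnipa, whose mammalian counterpart restrains glucose uptake and responds to glucose, stood at 241 and 272 CPM in gch2 cells, 121 and 123 CPM in dct cells, 198 and 121 CPM in pnp4a cells with fhl2b, and 67.3 and 77.1 CPM in those without.

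Carriers of other metabolites were read from the same list. The sugar phosphate carrier gene slc37a2 was highest in dct cells, at 414 and 490 CPM, where the 6 transporters summed to 196 and 161 CPM. The monocarboxylate transporter gene slc16a1b was highest in pnp4a cells with fhl2b, at 106 and 77.5 CPM, and like the slc2a15 genes it was called higher with fhl2b (log2 ratios 2.17 and 1.56). Its partner bsg ranged from 234 CPM in phox2bb cells of DMSO to 914 CPM in slc6a5 cells of CVT-10216. In epcam cells slc5a9 stood at 142 and 79.7 CPM, and slc16a10 reached 141 and 165 CPM in mpeg1.1 cells.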

How the data were processed

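Single-cell RNA-seq libraries of DMSO and CVT-10216 embryos were analysed, 1 per condition. The authors had made the reads into UMI counts with CellRanger 3.1.0 on GRCz11 with Ensembl 94 annotation and added GFP and mCherry entries (their notes to GEO also name version 2.1.1), and had aggregated the libraries. Whether depth was equalised is not given in the sources used here. Both deposited tables, of every barcode and of the filtered cells, hold raw UMI counts. The filtered table was used, and the barcode suffix gave the library (1 DMSO, 2 CVT-10216), as its cell numbers matched the study's order of libraries.

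The 6 genes, gates, lists and limits were chosen with earlier results of these data known. A cell passing several gates (510 cells passed 2 gates and 13 passed 3) went to the gate whose gene was highest relative to its 99th percentile. The pnp4a cells were split at 3 and 0 UMIs of fhl2b. Sums over cells were scaled to CPM. Levels have exact Poisson intervals, shares exact Clopper-Pearson intervals and ratios exact conditional binomial intervals, all at 95%. Cells are not replicates, so no p-value was computed. A condition ratio was called at 1.5-fold, one by fhl2b at 2-fold and one of a type over all other gated cells at 4-fold, with at least 20 UMIs and an interval excluding 0. Gene by gene intervals were tested on simulated counts. Shares used cells thinned to 4000 UMIs, which left out 23.9% of DMSO and 19.7% of CVT-10216 cells. No doublet caller was run. Named were the 6 genes, other family and pathway genes of at least 20 CPM, and the 5 genes most alike each member among those with at least 200 UMIs. No sequence or genome position is given, since no reference of the files' build was used. Python 3.11.15, numpy 2.4.6, scipy 1.17.1 and edgeR 4.0.16 (TMM factors only) were used.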

Additional observations from a re-analysis of the deposited data

Results flagged for a closer look

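The difference of slc2a11b between CVT-10216 and DMSO ran in opposite directions in different types. Its log2 ratio was 3.14 in pnp4a cells with fhl2b, 1.78 in pnp4a cells without fhl2b and 1.06 in phox2bb cells, but −2.48 in mpeg1.1 cells. In the pnp4a cells with fhl2b, 68 of the 93 CVT-10216 UMIs lay in 5 cells. Among cells with at most 2 gch2 UMIs, a limit that also removes slc2a11b, the ratios in pnp4a cells were not called. They were 1.56 (−0.20 to 3.66) with fhl2b, on 4 against 11 UMIs, and 0.44 (−0.37 to 1.35) without. In phox2bb and mpeg1.1 cells they were 0.12 and −0.09 under that limit, also without a call. The mpeg1.1 value rests on few cells, with 31 of the 46 DMSO UMIs in 1 cell, and came to 0.56 without cells passing several gates and 0.23 with gates at 10 UMIs. Without the 5% of cells with most UMIs the phox2bb ratio was 0.58 and no longer called. With 1 library per condition the difference between the types was not tested.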

How the results depend on the processing

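The main counts were 8 types with a clear leader, 14 pairs of a gene and a type of at least 20 CPM in both libraries, 9 condition calls, 2 calls by fhl2b, 4 calls of a type over the rest and 23 thinned shares of at least 10%. The leader itself was the same in all 9 types of both libraries under 11 of the 13 alternatives, and in 8 types with gates at 10 UMIs or with at most 2 UMIs of gch2, where slc2a15a led in mpeg1.1 cells of CVT-10216. Thinning to 4000 UMIs left 5 clear leaders. Gates at 10 UMIs left 6, a gate floor of 0.25 left 6, and leaving out cells passing several gates left 7. Weighting cells equally, which gives no interval and calls by fold alone, gave 15 condition calls, and cells with at most 2 UMIs of gch2, an alternative chosen after seeing the data, gave 4. TMM factors left 1 call by fhl2b, since slc2a15a in CVT-10216 came to 0.95; they shifted these ratios of every gene by −0.21 in DMSO and −0.35 in CVT-10216, and moved the median gene of phox2bb cells from 0.16 to −0.01. Reversed were slc2a11b in mpeg1.1 cells with gates at 10 UMIs (0.23) and without cells passing several gates (0.56), and slc2a1a in phox2bb cells after thinning (−1.30). The last rests on 10 and 3 cells with a UMI, too few for a call. Of the other values for single genes, 17 lost their call and 148 kept direction and call. Division by coding length was not run, as no protein table was used. No paired analysis was possible because each condition has 1 library. Depth limits slc2a1a and slc2a1b, and the 36 actc1b cells of DMSO.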
